A study of Homo sapiens with 4 samples.

Results

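The clustered histone genes were described in HCT116, an established line of human colon cancer cells, after knockdown of RBM25 and after a control shRNA. A gene was taken as a member when the deposited tables list it as protein-coding and its name starts with HIST1H, HIST2H, HIST3H or HIST4H. This gave 71 of 58735 genes, or 71 of 19951 protein-coding genes: 6 for linker histone H1, 17 for H2A, 18 for H2B, 15 for H3 and 15 for H4. In the HIST1 cluster on chromosome 6 lie 55 of them, 12 belong to HIST2 and 3 to HIST3 on chromosome 1, and 1 is the isolated HIST4H4 on chromosome 12. The groups were RBM25_sh (HCT116 with an shRNA against RBM25, 2 libraries) and control_sh (HCT116 with a control shRNA, 2 libraries), both grown in McCoy's medium with serum and sequenced from TRIzol-extracted total RNA. No label says that the libraries of a group came from separate cultures, or how many shRNA sequences or clones were used, so the p-values below measure the spread between libraries, which may be technical. The study asked about RBM25, an RNA-binding protein that takes part in splice site choice, in colon cancer and in the splicing of MNK2.

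Nucleosomes are built from the core histones H2A, H2B, H3 and H4, and H1 binds the linker DNA between them. Most of their protein is made in S phase from the clustered, replication-dependent genes. Nearly all of these genes lack introns, and their mRNAs normally end at a conserved stem-loop, bound by the protein SLBP, instead of a poly(A) tail. A minority also give polyadenylated transcripts that run past the stem-loop, chiefly in differentiated or slowly dividing cells. H2A and H2B genes commonly stand head to head and share the DNA between their starts. Library construction is labelled only as a standard Illumina protocol. Whether poly(A) RNA was selected, which decides how much stem-loop-ended mRNA a library can hold, is not given in the sources used here.

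The stem-loop is the sequence that sets these mRNAs apart, and 4 forms of it were found in the GENCODE release 29 transcripts of the members. The search asked for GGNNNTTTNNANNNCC with pairing bases on the arms, in the sense strand. Capitals mark the loop between the paired arms.
Stem-loop of 17 genes (6 H2A, 8 H2B, 3 H3): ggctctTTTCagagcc
Stem-loop of 5 genes (3 H2B, 2 H3): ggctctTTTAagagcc
Stem-loop of 5 H4 genes: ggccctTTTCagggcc
Stem-loop of 3 H4 genes: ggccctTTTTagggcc
A stem-loop was present in 30 of 71 members (42.3%), against 64 of all 19922 protein-coding genes with transcripts (0.321%), these members included. The other models give no information about it in most cases, because 33 of 71 members are annotated with coding bases only. In 21 members the annotated transcript continues for more than 100 bases after the stem-loop. These 21 genes held 1936 of the 4115 counts of all members, and 12 of them had 10 or more counts over the 4 libraries. Of the 33 coding-only models 6 had 10 or more counts, and the group held 1320 counts. The listed lengths differ too, with a median of 1880 bases for the models that run past the stem-loop and 393 bases for those limited to coding bases, so counts of the 2 kinds are not on an equal footing.

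Promoters are shown of the 4 H2A genes that had 10 or more counts over the 4 libraries and a divergent partner with 10 or more, because the pairs are compared further on. They are the 250 bases before the gene's start in RefSeq (GRCh38.p14), on the gene's strand, and 66 of 71 members were matched. Capitals mark TATAAA (the TATA box), CCAAT (bound by NF-Y) and ATTTGCAT (the octamer bound by Oct-1), on either strand.
HIST2H2AC, chr1:149886668-149886917, plus strand: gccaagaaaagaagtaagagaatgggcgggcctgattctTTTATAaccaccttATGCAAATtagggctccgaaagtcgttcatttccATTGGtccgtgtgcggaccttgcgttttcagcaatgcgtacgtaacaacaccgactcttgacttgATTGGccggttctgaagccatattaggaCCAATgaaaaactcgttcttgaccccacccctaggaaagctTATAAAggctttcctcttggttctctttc
HIST1H2AG, chr6:27132793-27133042, plus strand: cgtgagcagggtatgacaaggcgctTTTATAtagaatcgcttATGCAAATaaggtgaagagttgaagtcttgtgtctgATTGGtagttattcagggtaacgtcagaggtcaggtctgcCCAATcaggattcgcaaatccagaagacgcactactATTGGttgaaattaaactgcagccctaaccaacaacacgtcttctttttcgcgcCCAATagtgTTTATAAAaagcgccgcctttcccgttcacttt
HIST1H2AC, chr6:26123922-26124171, plus strand: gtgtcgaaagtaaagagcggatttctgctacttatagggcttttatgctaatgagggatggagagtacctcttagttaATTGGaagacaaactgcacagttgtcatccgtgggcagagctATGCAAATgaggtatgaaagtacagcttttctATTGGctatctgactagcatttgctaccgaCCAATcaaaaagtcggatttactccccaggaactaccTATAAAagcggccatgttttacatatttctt
HIST3H2A, chr1:228457874-228458123, minus strand: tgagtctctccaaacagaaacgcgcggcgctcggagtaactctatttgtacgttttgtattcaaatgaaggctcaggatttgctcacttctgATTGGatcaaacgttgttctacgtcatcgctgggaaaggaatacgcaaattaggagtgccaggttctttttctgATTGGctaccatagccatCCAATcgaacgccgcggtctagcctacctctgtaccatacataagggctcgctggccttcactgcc
The octamer was written in 26 of 66 member windows (39.4%), against 1.63% of all 35116 promoter windows of the same length. It stood in 11 of 16 H2A windows and 14 of 18 H2B windows, but in 0 of 6 H1 and 0 of 13 H4 windows. Of the 13 H3 windows 1 held it, that of HIST1H3D, which is the same window as that of the H2A gene HIST1H2AD. CCAAT was in all H1, H2A, H2B and H3 windows matched and in 3 of 13 H4 windows (23.1%), and in 32% of all windows. TATAAA was in 44 of 66 (66.7%), against 10.7% of all windows. Of the 4 sequences printed, that of HIST3H2A holds CCAAT without TATAAA or the octamer, and the other 3 hold all of these motifs. A match of letters is a description and not evidence of binding.

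The deposited counts summed to 15528274 and 16335555 in the RBM25_sh libraries, and to 15528869 and 16982663 in the control_sh libraries. RBM25 itself had 44.0 and 35.7 CPM (counts scaled to library size by TMM) in RBM25_sh, against 155 and 115 CPM in control_sh, which gives −1.76 ± 0.30 (SE) as log2 fold change (edgeR adjusted p = 0.0195). The adjusted p of RBM25 was 0.119 without RBM25_sh replicate 1 and 0.202 without RBM25_sh replicate 2, with the direction kept. Of the colon epithelial markers 7 of 10 were measurable, with summed levels of 4410 and 5520 CPM in RBM25_sh and 3400 and 4210 CPM in control_sh. Most of these sums came from the keratin genes KRT8, KRT18 and KRT19. CDX1 was at 0 in every library. VIL1 had 1 and 0 counts in RBM25_sh and 0 and 0 in control_sh, and LGALS4 0 and 0 in RBM25_sh and 2 and 5 in control_sh. CDH17 had 0.335 and 0.319 CPM in RBM25_sh and 0.885 and 0.669 CPM in control_sh. CDX2 was higher, at 10.6 and 18 CPM in RBM25_sh and 12.1 and 15.3 CPM in control_sh. Markers of other cell types summed to 42.2 and 54.0 CPM in RBM25_sh and 44.2 and 68.0 CPM in control_sh, mostly COL1A1, with CD3E and COL1A2 at 0. Control_sh replicate 2 stood apart: RN7SL2, the non-polyadenylated 7SL RNA of the signal recognition particle, had 3.75 and 14.7 CPM in RBM25_sh, and 5.06 CPM in control_sh replicate 1 but 923 CPM in control_sh replicate 2. The summed level of 12 non-polyadenylated RNAs was 7.17 and 18.2 CPM in RBM25_sh, against 7.59 and 925 CPM in control_sh, with 5 of the 12 at 0 in every library. Across all genes tested, the difference of replicate 2 from replicate 1 also followed GC content in both groups (Spearman's rho 0.652 in RBM25_sh and 0.727 in control_sh, across genes, which are not replicates).

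The clustered histone genes were scarce in all 4 libraries. Together they held 782 and 953 counts in RBM25_sh, against 1062 and 1318 in control_sh. As shares of all counts these were 0.00504% (exact Clopper-Pearson 95% interval 0.00469 to 0.0054) and 0.00583% (0.00547 to 0.00622) in RBM25_sh, and 0.00684% (0.00643 to 0.00726) and 0.00776% (0.00735 to 0.00819) in control_sh. Such intervals cover counting error only. The RBM25_sh libraries were therefore both below the control_sh libraries in this share, and the libraries within a group also differed. Members with at least 1 count numbered 28 and 33 in RBM25_sh and 30 and 44 in control_sh, and 20 members had a count in every library. No count at all was recorded for 22 members, 25 had 1 to 9 counts over the 4 libraries and 24 had 10 or more. A count of 0 in a library allows a level of up to 0.201 and 0.191 CPM in RBM25_sh and 0.19 and 0.167 CPM in control_sh. These are 3 counts on the TMM scale, and hold only where reads can be assigned to the gene. Most of the 50-base stretches of 16 members also occur in other genes, and 15 members have an exon that overlaps another gene. Among the members without a count, HIST1H3D, HIST2H3A and HIST2H3PS2 each share 100% of their stretches with other genes. Those are AL031777.3 for HIST1H3D, HIST2H3C for HIST2H3A and AC239798.4 for HIST2H3PS2, among others. What this did to their counts was not tested.

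Most of the signal came from few genes. HIST1H2BK, HIST1H1C, HIST1H2AC and HIST3H2A held 2293 of the 4115 counts (55.7%). Compared per length, as mean deposited FPKM over the 4 libraries, the highest level was that of the H2B gene HIST1H2BK at 23.4 FPKM (19.5 to 27.4) and its range lay wholly above that of the next gene. HIST1H1C followed at 13.8 FPKM (11.6 to 17.3), HIST3H2A at 8.53 FPKM (6.36 to 14), HIST1H2BD at 5.80 FPKM (4.43 to 7.34) and HIST1H2AC at 5.36 FPKM (4.52 to 6.46). The ranges of HIST1H1C, HIST3H2A, HIST1H2BD and HIST1H2AC overlap from each to the next in this order, whereas HIST1H2AC did not overlap HIST1H4I, the leading H4 gene, at 3.02 FPKM (2.37 to 3.81). The level of HIST1H2BK rests on a coding-only model of 381 bases. Of its 50-base stretches 74.1% also occur in other genes, among them H2BFS, so reads could be counted for another gene. H2BFS had 0 and 1 counts in RBM25_sh and 0 and 0 in control_sh.

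Summed over all genes of a class, also those too low to test, the H2A and H4 genes were lower in both RBM25_sh libraries than in both control_sh libraries. H2A genes summed to 17.6 and 16.8 CPM in RBM25_sh, against 22.5 and 26.4 CPM in control_sh (17.2 ± 0.519 in RBM25_sh and 24.4 ± 2.82 in control_sh, SD, n = 2 each). This is a log2 ratio of −0.51. H4 genes summed to 4.56 and 4.46 CPM in RBM25_sh and 6.07 and 5.47 CPM in control_sh (4.51 ± 0.0679 in RBM25_sh and 5.77 ± 0.427 in control_sh), a log2 ratio of −0.36. H2B genes, at 17.4 and 23.7 CPM in RBM25_sh and 24.3 and 25.0 CPM in control_sh, also did not overlap, but RBM25_sh replicate 2 lay close to the controls (20.6 ± 4.44 in RBM25_sh and 24.7 ± 0.455 in control_sh, log2 ratio −0.26). H1 genes summed to 8.58 and 10.1 CPM in RBM25_sh and 8.79 and 12.2 CPM in control_sh, with overlapping groups and a log2 ratio of −0.17, which was 0.08 without control_sh replicate 2. H3 genes overlapped as well, at 4.29 and 5.67 CPM in RBM25_sh and 5.50 and 4.46 CPM in control_sh, with means of 4.98 ± 0.978 in RBM25_sh and 4.98 ± 0.735 in control_sh. No test was run on these sums, since 2 libraries against 2 cannot reach an exact permutation p under 0.05.

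The H1, H3 and H4 sums rest largely on the leading gene of the class. HIST1H1C held 91.9% of the H1 counts, HIST1H4I 77.7% of the H4 counts and HIST1H3E 69.1% of the H3 counts. The larger classes were more evenly filled, with HIST1H2AC at 43.4% of H2A and HIST1H2BK at 40.5% of H2B. Of the H2A sum of 26.4 CPM in control_sh replicate 2, HIST3H2A gave 13.1 CPM. It had 6.01 CPM in control_sh replicate 1, and 5.63 and 6.82 CPM in RBM25_sh. By cluster, HIST1 genes summed to 42.9 and 49.3 CPM in RBM25_sh and 55.4 and 55.0 CPM in control_sh. HIST2 genes gave 3.28 and 3.63 CPM in RBM25_sh and 5.00 and 4.52 CPM in control_sh. The HIST3 sums overlapped, at 6.03 and 7.52 CPM in RBM25_sh and 6.32 and 13.7 CPM in control_sh, and 94% of the HIST3 counts belong to HIST3H2A.

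**Figure D1:**
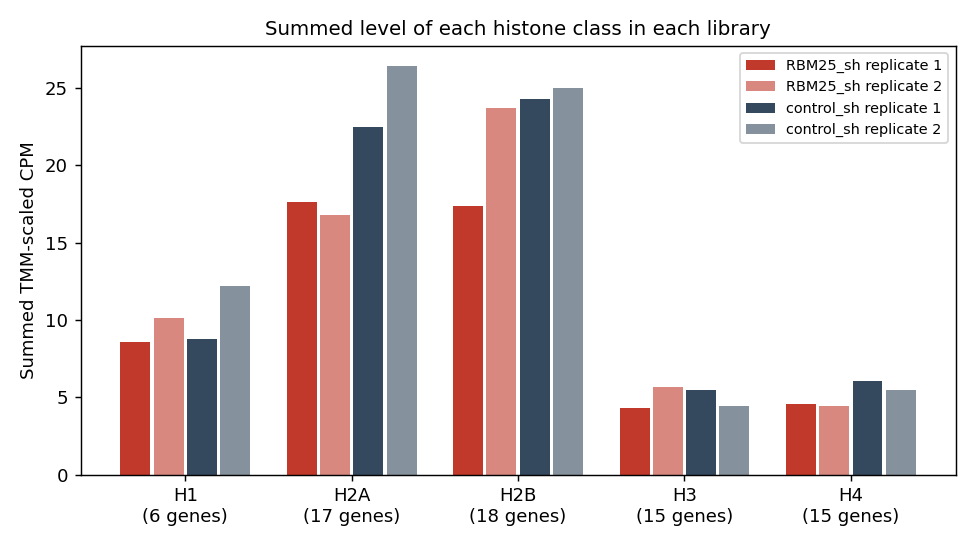
Summed TMM-scaled CPM (y axis) of all genes of each histone class (x axis) in each library, as bars, RBM25_sh in red and control_sh in blue-grey. H2A bars stand at 17.6 and 16.8 CPM in RBM25_sh and 22.5 and 26.4 CPM in control_sh, while the H1 and H3 bars of the groups overlap.

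Gene by gene, 16 of 71 members had enough counts to be tested, the lowest with 46 counts over the 4 libraries. None of the 16 was called at an edgeR adjusted p of 0.05, and 2 had an unadjusted p under 0.05 (HIST2H2AC and HIST2H2BF). DESeq2 called 0 as well, where it called 6.74% of all genes. Over all 16091 genes tested 3.05% were called (0.653% higher and 2.4% lower in RBM25_sh), so 0 of 16 is a share near the background. These were 105 genes higher and 386 lower, and 3017 higher and 2119 lower when each library's trends on GC content and length were removed. The log2 fold change was below 0 for 14 of 16 tested members, against 52.5% of all genes, and the median was −0.42 for the members and −0.04 for all genes. These 16 passed a filter that a gene can meet through its higher group, and several share a cluster and sequence, so the counts and the median are a description. All CPM of RBM25_sh lay below all CPM of control_sh for 5 members (27.9% of all genes), above for 1 (23.9% of all genes), and the groups overlapped for 10.

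**Figure D2:**
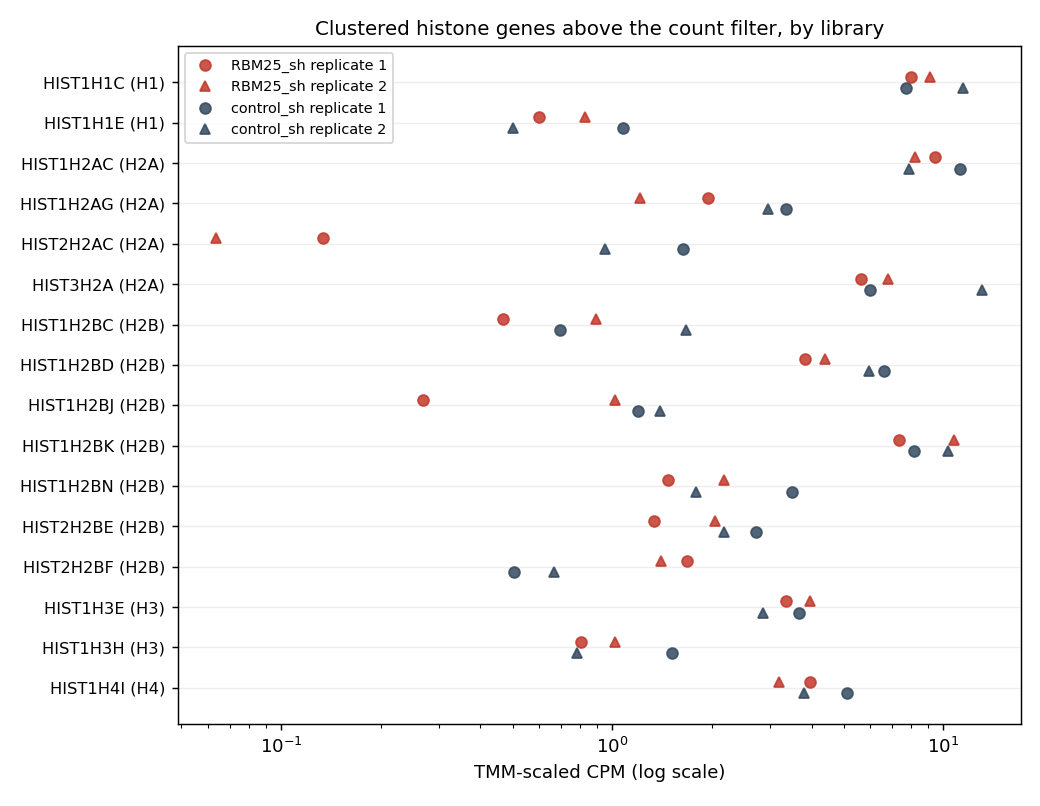
TMM-scaled CPM (x axis, log scale) of the 16 tested members (y axis, histone class in brackets), 1 point per library, RBM25_sh in red and control_sh in blue-grey, circles for replicate 1 and triangles for replicate 2. HIST2H2AC stands apart at 0.134 and 0.0637 CPM in RBM25_sh against 1.64 and 0.948 CPM in control_sh, and HIST2H2BF is the gene whose RBM25_sh points both lie to the right of its control_sh points.

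Of the H1 genes, which encode linker histones, 2 could be tested and neither differed beyond the spread between libraries. HIST1H1C (chr6:26055787-26056428 on GRCh38, as for all genes here, minus strand; H1.2) had 7.97 and 9.11 CPM in RBM25_sh, against 7.72 and 11.5 CPM in control_sh. Its groups overlapped, and the log2 fold change was −0.17 ± 0.33 (edgeR adjusted p = 0.805), which became 0.09 once GC and length trends were removed. HIST1H1E (chr6:26156354-26157107, plus strand; H1.4) had 9 and 13 counts in RBM25_sh and 17 and 9 counts in control_sh, or 0.716 ± 0.159 CPM in RBM25_sh and 0.789 ± 0.405 CPM in control_sh (SD). The log2 fold change of HIST1H1E was −0.12 ± 0.67 (edgeR adjusted p = 0.94), a change smaller than its standard error. The other 4 H1 genes had at most 9 counts each over the 4 libraries, and 1 of them had none.

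H2A held the tested member with the largest fold change. HIST2H2AC (ENSG00000184260, chr1:149886975-149887364, plus strand), an H2A gene of the HIST2 cluster, had 2 and 1 counts in RBM25_sh and 26 and 17 counts in control_sh. These correspond to 0.134 and 0.0637 CPM in RBM25_sh and 1.64 and 0.948 CPM in control_sh (0.0989 ± 0.0497 in RBM25_sh and 1.30 ± 0.492 in control_sh, SD). Both RBM25_sh libraries lay below both control_sh libraries, and below the level of 3 counts. The edgeR log2 fold change was −3.62 ± 0.84, with an adjusted p of 0.0517, just outside the threshold. The adjusted p ran between 0.000739 and 0.265 over the alternatives and passed 0.05 in several of them, among them the fit without control_sh replicate 2 (0.0322, where 6.15% of all genes were called) and the correction for GC and length (0.0229, where 31.9% were). HIST2H2AC passed the count filter through its control_sh counts, and it is singled out here for its difference. Pooled over libraries, 3 counts in RBM25_sh against 43 in control_sh give a depth-scaled ratio of 0.0769 (exact 95% interval 0.0153 to 0.24). That interval leaves out the spread between libraries, so it describes counting error only and adds no support to the adjusted p. The annotated model of HIST2H2AC holds coding bases only, and 30.5% of its 50-base stretches also occur in other genes, among them HIST2H2AA3. That copy had 1 and 0 counts in RBM25_sh and 0 and 0 in control_sh, and HIST2H2AA4, a further copy of it, had 0 and 0 in RBM25_sh and 1 and 1 in control_sh.

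HIST1H2AG (chr6:27133042-27135291, plus strand) was the second H2A gene with separate groups. It had 29 and 19 counts in RBM25_sh and 53 and 53 counts in control_sh, or 1.94 and 1.21 CPM in RBM25_sh against 3.35 and 2.96 CPM in control_sh. The log2 fold change was −1.0 ± 0.46 (edgeR adjusted p = 0.243). HIST1H2AC (chr6:26124145-26139116, plus strand), the H2A gene with the most counts, had 9.45 and 8.22 CPM in RBM25_sh and 11.2 and 7.87 CPM in control_sh. Its groups overlapped, and the log2 fold change was −0.11 ± 0.33 (edgeR adjusted p = 0.884). HIST3H2A (chr1:228456979-228457873, minus strand) had 5.63 and 6.82 CPM in RBM25_sh, against 6.01 and 13.1 CPM in control_sh. Here a single library decides the value: the log2 fold change was −0.62 ± 0.41 (edgeR adjusted p = 0.422) with all libraries, 0.05 without control_sh replicate 2, and −1.06 without control_sh replicate 1 (adjusted p = 0.0453, where 13.9% of all genes were called). Control_sh replicate 2 is also the library with 923 CPM of RN7SL2, and the part of that difference in the HIST3H2A value was not tested.

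**Figure D3:**
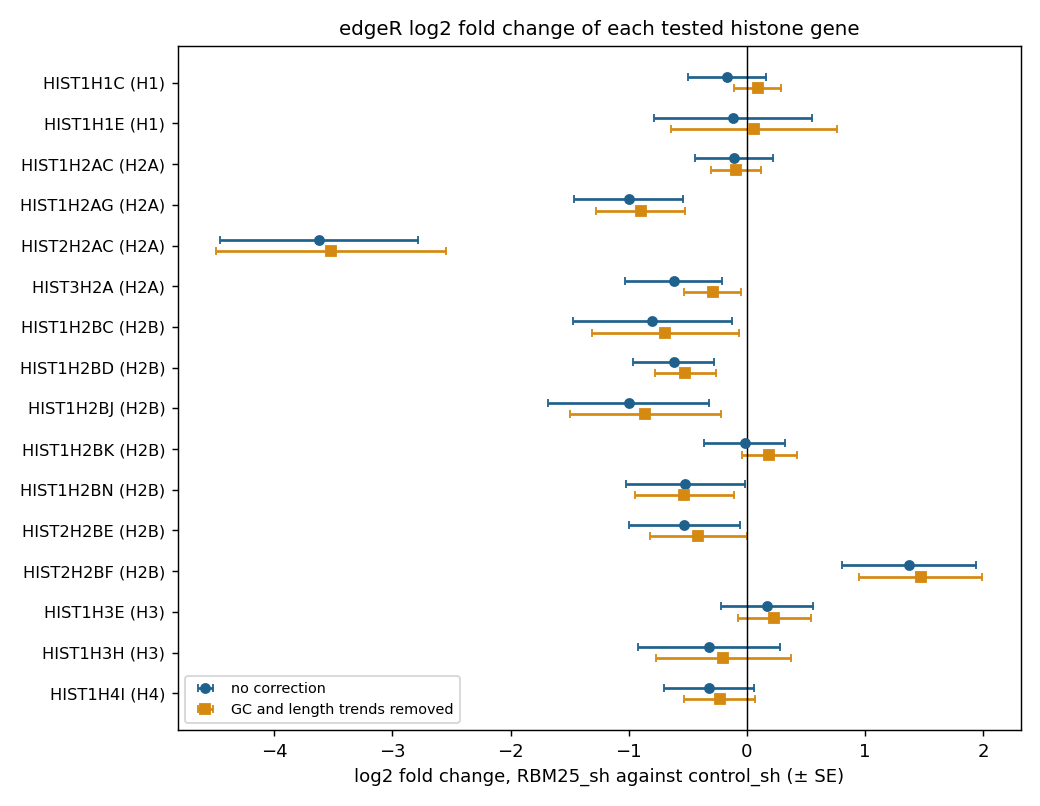
edgeR log2 fold change of RBM25_sh against control_sh (x axis) with its standard error (bars) for the 16 tested members (y axis), without correction (blue circles) and with GC and length trends removed (orange squares). HIST2H2AC lies at −3.62 and −3.52, HIST2H2BF at 1.37 and 1.47, and the other 14 members lie between −1.0 and 0.23 in both fits.

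Divergent pairs allow a comparison of genes that share one stretch of upstream DNA. In 12 pairs of members the upstream windows overlap on opposite strands, 11 of them H2A with H2B and 1 H2B with H3. The pair of H2B with H3, HIST1H2BF and HIST1H3D, is no separate stretch. The window matched to HIST1H3D is that of the H2A gene HIST1H2AD, which is also paired with HIST1H2BF. Of the 12 pairs 4 had 10 or more counts on both sides. HIST2H2AC and the H2B gene HIST2H2BE (chr1:149884459-149886652, minus strand) start 233 bases apart. HIST2H2BE had 20 and 32 counts in RBM25_sh and 43 and 39 counts in control_sh. HIST2H2AC therefore made up 9.09% (exact 95% interval 1.12 to 29.2) and 3.03% (0.0767 to 15.8) of the pair's counts in RBM25_sh, against 37.7% (26.3 to 50.2) and 30.4% (18.8 to 44.1) in control_sh. The shares of the groups did not overlap, although the interval of RBM25_sh replicate 1 reaches into those of the controls. They rest on the HIST2H2AC counts already given, and are no separate support for a difference. The model of HIST2H2BE runs 1729 bases past its stem-loop and that of HIST2H2AC stops at the coding bases, so the share compares libraries and not the output of the 2 promoters.

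In 2 of the other 3 pairs the share of the H2A gene overlapped between groups. HIST1H2AG took 87.9% and 54.3% of the counts it shares with HIST1H2BJ, which starts 245 bases away, in RBM25_sh, and 73.6% and 67.9% in control_sh. HIST1H2AC took 95.3% and 90.2% of the counts of its pair with HIST1H2BC (243 bases) in RBM25_sh, and 94.1% and 82.5% in control_sh. HIST3H2A took 93.3% and 90.7% of its pair with HIST3H2BB (227 bases) in RBM25_sh, against 95% and 95.9% in control_sh. Both RBM25_sh shares of HIST3H2A were thus lower than both control_sh shares, by less than the width of the exact 95% intervals of single libraries (86.1 to 97.5 in RBM25_sh replicate 1 and 88.7 to 98.4 in control_sh replicate 1).

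**Figure D4:**
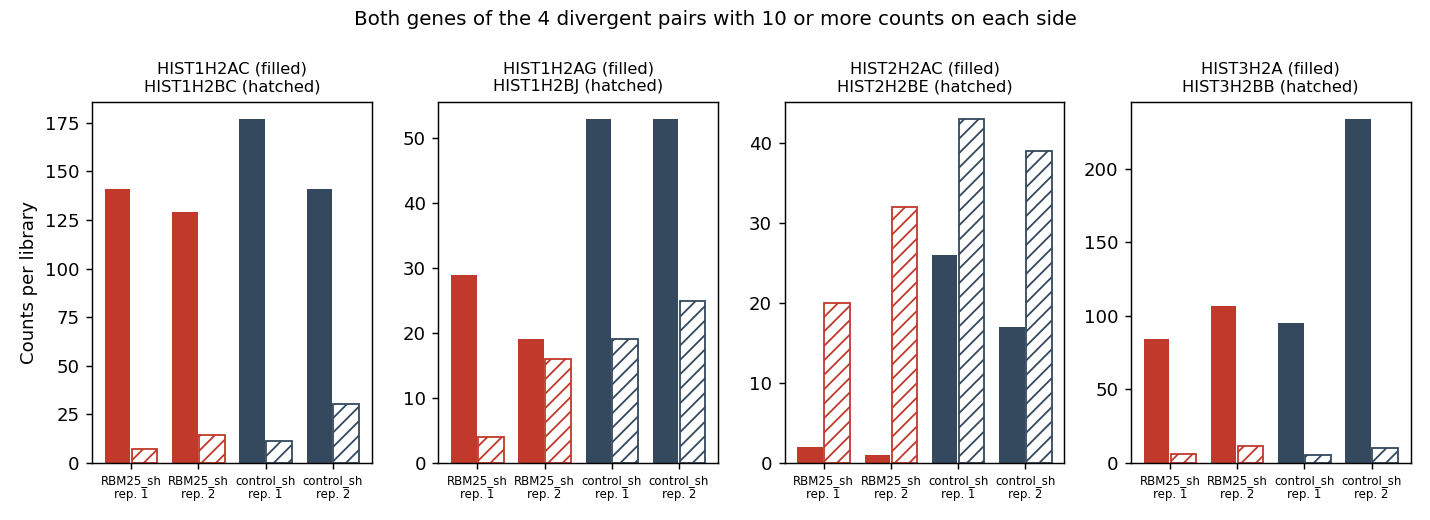
Counts per library (y axis, own scale in each panel) of both genes of the 4 divergent pairs, H2A gene filled and H2B gene hatched, RBM25_sh in red and control_sh in blue-grey. In the HIST2H2AC pair the filled bars are at 2 and 1 counts in RBM25_sh and at 26 and 17 counts in control_sh, while HIST2H2BE had 20 and 32 counts in RBM25_sh and 43 and 39 in control_sh.

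Among the 7 tested H2B genes 3 had lower ranges in RBM25_sh, 1 had higher ranges and 3 overlapped, where 27.9% of all genes had lower and 23.9% higher ranges. HIST1H2BD (chr6:26158146-26171349, plus strand) had 3.82 and 4.40 CPM in RBM25_sh, against 6.64 and 5.97 CPM in control_sh. With 57 and 69 counts in RBM25_sh and 105 and 107 in control_sh it is the best counted member with separate groups, and its log2 fold change was −0.62 ± 0.34 (edgeR adjusted p = 0.337). HIST2H2BE had 1.34 and 2.04 CPM in RBM25_sh and 2.72 and 2.18 CPM in control_sh (log2 fold change −0.53 ± 0.47, edgeR adjusted p = 0.555). HIST1H2BJ (chr6:27125897-27132750, minus strand) had 4 and 16 counts in RBM25_sh and 19 and 25 counts in control_sh. The log2 fold change, −1.0 ± 0.68 (edgeR adjusted p = 0.438), leans on RBM25_sh replicate 1, and ran between −2.21 and −0.33 as each library was left out.

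HIST2H2BF (chr1:149782689-149812373, minus strand), an H2B gene of the HIST2 cluster with an intron in its annotation, was the tested member with the opposite order. It had 25 and 22 counts in RBM25_sh and 8 and 12 counts in control_sh, or 1.68 and 1.40 CPM in RBM25_sh against 0.506 and 0.669 CPM in control_sh. Both RBM25_sh libraries lay above both control_sh libraries, and the log2 fold change was 1.37 ± 0.57 (edgeR adjusted p = 0.204). Part of its long model overlaps exons of FCGR1A, an Fc receptor gene that had 3 and 1 counts in RBM25_sh and 2 and 0 counts in control_sh. In addition, 25.7% of its 50-base stretches occur in other genes, among them HIST2H2BA, which had no counts. The model runs 1479 bases past the stem-loop, and counts per gene do not tell which of its transcripts the reads came from.

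The remaining H2B genes overlapped between groups. HIST1H2BK (ENSG00000197903, chr6:27146418-27146798, minus strand), the histone gene with the most counts, had 7.37 and 10.8 CPM in RBM25_sh and 8.16 and 10.3 CPM in control_sh. Its log2 fold change was −0.02 ± 0.34 (edgeR adjusted p = 0.98), the smallest of the tested members in size, and it was 0.19 once GC and length trends were removed. HIST1H2BN (chr6:27837760-27865798, plus strand) had 1.47 and 2.17 CPM in RBM25_sh and 3.48 and 1.79 CPM in control_sh, and its log2 fold change was −0.52 ± 0.50 (edgeR adjusted p = 0.59). Its long model overlaps HIST1H2AK and HIST1H2AL, both without counts. HIST1H2BC (chr6:26114873-26123926, minus strand) had 7 and 14 counts in RBM25_sh and 11 and 30 counts in control_sh. Its log2 fold change was −0.80 ± 0.67 (edgeR adjusted p = 0.533), and −0.03 without control_sh replicate 2.

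H3 and H4 genes contributed 3 tested members, none with separate groups. HIST1H3E (chr6:26224199-26227473, plus strand) had 3.35 and 3.95 CPM in RBM25_sh and 3.67 and 2.85 CPM in control_sh. With HIST2H2BF it was the other tested member above 0, with 0.17 ± 0.39 on the log2 scale (edgeR adjusted p = 0.845). HIST1H3H (chr6:27810064-27811300, plus strand) had 12 and 16 counts in RBM25_sh and 24 and 14 counts in control_sh, or −0.32 ± 0.60 on the log2 scale (edgeR adjusted p = 0.799). The H4 gene HIST1H4I (chr6:27138588-27139881, plus strand) had 3.95 and 3.19 CPM in RBM25_sh and 5.12 and 3.79 CPM in control_sh. Its log2 fold change was −0.32 ± 0.38 (edgeR adjusted p = 0.679), and the groups overlapped, unlike the H4 sum to which it gives most counts.

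The other 55 members were not tested, and the best counted of them had 32 counts over the 4 libraries. Of these, 8 had 10 or more. HIST3H2BB, the H2B partner of HIST3H2A, had 6 and 11 counts in RBM25_sh and 5 and 10 in control_sh. HIST4H4, an H4 gene with a model that runs past its stem-loop, had 3 and 4 counts in RBM25_sh and 7 and 7 in control_sh. The H3 gene HIST1H3A had 2 and 3 counts in RBM25_sh and 4 and 7 in control_sh. For HIST4H4 and HIST1H3A the control_sh counts are the higher in both libraries, by a handful of counts that cannot separate the groups at this depth. The H2A gene HIST1H2AJ had 3 and 3 counts in RBM25_sh and 0 and 9 in control_sh, and HIST1H2AI had 0 and 4 in RBM25_sh and 3 and 5 in control_sh. Of their 50-base stretches 83.7% in HIST1H2AJ and 62.3% in HIST1H2AI also occur in other genes. Each is among the genes that share with the other, so reads could be counted for either. HIST1H2BE had 5 and 1 counts in RBM25_sh and 3 and 4 in control_sh. The H4 gene HIST1H4K had 0 and 6 counts in RBM25_sh and 1 and 4 in control_sh, and 100% of its 50-base stretches also occur in other genes, among them HIST1H4J. A further H4 gene, HIST1H4E, had 4 and 1 counts in RBM25_sh and 0 and 5 in control_sh. Counts of HIST1H2AJ, HIST1H2AI, HIST1H2BE, HIST1H4K and HIST1H4E differed as much within a group as between groups. In control_sh replicate 2, the library with the most counts (16982663), 8 members had counts in that library alone, from 1 to 6 counts each. Such members numbered 3 in RBM25_sh replicate 1, 1 in RBM25_sh replicate 2 and 0 in control_sh replicate 1. The share over all genes was not taken, so these numbers describe the libraries and are no trait of the histone genes.

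Of the genes that make, trim and remove histone mRNA, none of the 13 tested for stem-loop 3′ processing was called, where 3.05% of all genes were. Their median log2 fold change was 0.42, and 2 were below 0, against 52.5% of all genes. SLBP, which binds the stem-loop, had 118 and 102 CPM in RBM25_sh and 94.9 and 83.6 CPM in control_sh (0.30 ± 0.27, edgeR adjusted p = 0.557). NCBP1, the large subunit of the nuclear cap-binding complex, had 157 and 122 CPM in RBM25_sh and 92.0 and 58.2 CPM in control_sh (0.89 ± 0.31, edgeR adjusted p = 0.145). CPSF2, a subunit of the cleavage complex, had 193 and 155 CPM in RBM25_sh and 118 and 63.6 CPM in control_sh (0.94 ± 0.34, edgeR adjusted p = 0.151). SYMPK, the scaffold of that complex, had the opposite order at 91.3 and 130 CPM in RBM25_sh and 166 and 196 CPM in control_sh (−0.71 ± 0.29, edgeR adjusted p = 0.197). With GC and length trends removed, 6 of the 13 were called higher and 1 lower, where 18.7% of all genes were called higher and 13.2% lower. SLBP (edgeR adjusted p = 0.0459 in that fit), NCBP1 and CPSF2 were among those called higher, and SYMPK was called lower.

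The 9 genes of histone gene transcription had a median of 0.45 and 0 calls, beside 3.05% of all genes called. With GC and length trends removed 5 were called higher and 0 lower, beside 18.7% higher and 13.2% lower of all genes. They include cyclin E2, whose gene CCNE2 had 18.5 and 14.6 CPM in RBM25_sh and 8.60 and 6.19 CPM in control_sh (1.16 ± 0.33, edgeR adjusted p = 0.0856). DESeq2 called CCNE2 (adjusted p = 0.0339), where it called 6.74% of all genes. CCNA2, for cyclin A2, had 172 and 156 CPM in RBM25_sh and 120 and 89.7 CPM in control_sh (0.65 ± 0.28, edgeR adjusted p = 0.219). Of 14 genes of histone mRNA decay 0 were called, where 3.05% of all genes were, with a median of 0.22. With the trends removed 2 were called higher, no larger a share than the 18.7% of all genes. Among them, LSM3, a subunit of the ring that binds the RNA end, had 59.7 and 46.4 CPM in RBM25_sh and 29.3 and 34.5 CPM in control_sh (0.73 ± 0.29, edgeR adjusted p = 0.181). DCP2, the decapping enzyme, had 209 and 173 CPM in RBM25_sh and 143 and 88.5 CPM in control_sh (0.72 ± 0.31, edgeR adjusted p = 0.22). Histone chaperones and their partners gave 0 calls among 19 tested, beside the same 3.05% of all genes, with a median of 0.28. With the trends removed 8 were called higher and 0 lower, beside the same 18.7% and 13.2% of all genes. HAT1, which acetylates newly made H4, had 123 and 108 CPM in RBM25_sh and 68.0 and 46.6 CPM in control_sh (1.01 ± 0.29, edgeR adjusted p = 0.0931). DESeq2 called HAT1 as well (adjusted p = 0.0251).

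DNA replication genes, whose S phase expression normally runs in parallel with that of the clustered histones, had a median of 0.26 over 22 genes. Of the 22, 1 was called, a share near the 3.05% of all genes called. The called gene was MCM4, a subunit of the replicative helicase, which rose to 345 and 358 CPM in RBM25_sh, against 164 and 130 CPM in control_sh (1.26 ± 0.27, edgeR adjusted p = 0.0433). That call was lost without RBM25_sh replicate 1 (adjusted p = 0.326) and without RBM25_sh replicate 2 (0.282), at log2 fold changes of 1.30 and 1.27, and in limma-trend on log2(FPKM + 1) (0.059) and log2(FPKM + 0.1) (0.0574). PCNA, the sliding clamp, had 317 and 296 CPM in RBM25_sh and 151 and 123 CPM in control_sh (1.16 ± 0.27, edgeR adjusted p = 0.0522). PCNA passed the threshold in other fits, among them DESeq2 (adjusted p = 0.0025), the 1 CPM filter (0.0488) and the fit with GC and length trends removed (0.000475), but not without RBM25_sh replicate 1 (0.497) or replicate 2 (0.296). With GC and length trends removed 10 of the 22 were called higher and 0 lower, where 18.7% of all genes were called higher and 13.2% lower.

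Replacement histone genes lie outside the clusters and mostly give polyadenylated mRNA. Of 11 tested 9 were below 0 (median −0.23), against 52.5% of all genes, and 1 was called, where 3.05% of all genes were. H1F0, the linker histone H1.0 of differentiated and non-dividing cells, was the called gene. It fell to 157 and 185 CPM in RBM25_sh, against 1010 and 1420 CPM in control_sh, or −2.83 ± 0.30 on the log2 scale (edgeR adjusted p = 0.00488), and was called in every alternative tried. The clustered H1 genes, HIST1H1C above all, did not show separate groups in the same libraries. H1FX, for the linker histone H1x, had 23.0 and 55.8 CPM in RBM25_sh and 82.7 and 207 CPM in control_sh (−1.88 ± 0.50, edgeR adjusted p = 0.0753), and its replicates differed widely within each group. H2AFJ, for the H2A variant H2A.J, had 2.14 and 4.27 CPM in RBM25_sh and 5.06 and 15.3 CPM in control_sh (−1.66 ± 0.54, edgeR adjusted p = 0.124). With GC and length trends removed, H1F0, H1FX (adjusted p = 0.000277) and H2AFJ (0.0459) were called lower and H2AFX, for the H2A variant H2A.X, higher (0.0347), where 13.2% of all genes were called lower and 18.7% higher. DESeq2 also called H1FX (adjusted p = 0.00276).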

How the data were processed

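For each of the 4 libraries the authors deposited whole-number counts and FPKM by gene. Cuffdiff 2.1.1, Cufflinks 2.1.1, TopHat2 2.0.9 and Bowtie2 2.0.6 are named in the submitters' processing notes. What each tool did, how reads were counted, whether by strand, and on which build is not given in the sources. Without a known strand setting, overlapping genes cannot be told apart. The deposited FPKM are proportional to count over listed gene length within each library, and were used for levels per length and as alternatives. All 58735 genes stand at their GENCODE release 29 (GRCh38) positions, and 27 names held as dates were taken from GENCODE by ID.

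Counts were tested with edgeR 4.0.16 (R 4.3.3): filterByExpr, TMM, a quasi-likelihood F test with group as the only term (2 residual degrees of freedom), Benjamini-Hochberg adjustment over all 16091 genes tested, two-sided, at 0.05. CPM are TMM-scaled. The SE is the log2 fold change over the square root of F. Every member kept by the filter is given in full, those under it with 10 or more counts by count, and of each partner list up to 3 genes with the smallest p, plus SLBP and H2AFX, which were chosen after their values were seen. Members and lists were chosen with earlier results of these data known. Alternatives were DESeq2 size factors, library totals, no filter (genes with at least 1 count), a filter of at least 1 CPM in every library of either group, DESeq2 1.42.0, limma-voom and limma-trend (limma 3.58.1) on log2(FPKM + 1) and log2(FPKM + 0.1), a replicate block, leaving out each library, and offsets that remove each library's smooth trend on GC content and length (mgcv 1.9.3). The fits were tested on simulated data. Libraries of a group differed by more than counting noise (chi-square per degree of freedom 24.6 in RBM25_sh and 62.5 in control_sh), so none was treated as a duplicate. Figures used matplotlib 3.10.9.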

Additional observations from a re-analysis of the deposited data

How the results depend on the processing

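The tested histone genes had a median standard error of 0.462 on the log2 scale, and 55 of 71 had too few counts to be tested. The count of histone genes called was 0 of 16, where 3.05% of all genes were called. It was 1, HIST2H2AC, with library totals (3.32% of all genes), without a filter (49 members tested, 4.65%) and with the 1 CPM filter (13 tested, 4.06%). HIST2H2AC was also the 1 call with limma-trend on log2(FPKM + 1) (1.34%) and log2(FPKM + 0.1) (1.67%), and with GC and length offsets (31.9%). Leaving out a library gave 0 to 1 calls, HIST3H2A without control_sh replicate 1 and HIST2H2AC without control_sh replicate 2. In these fits the lone library of a group is assumed to vary like the other group. Same-numbered libraries deviated together (correlation 0.466 across genes), but the labels do not say that a number marks a shared culture or day. The replicate block gave 2 calls (HIST1H2AG, adjusted p = 0.0452, and HIST2H2AC, 0.000739), where 35.6% of all genes were called, and offsets with the block also gave 2 (HIST2H2AC, 0.000913, and HIST2H2BF, 0.0442), where 42.7% were.

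The median log2 fold change of the histone genes stayed between −0.56 and −0.17 over all alternatives, and the median of all genes moved to −0.15 with library totals and 0.08 with GC and length offsets. In the main fit 9 genes of histone gene transcription, 13 of 3′ processing, 14 of decay and 19 of chaperones were tested. Calls among these genes of histone mRNA synthesis, processing, decay and chaperones numbered 0 there, where 3.05% of all genes were called. They numbered 3 without a filter (4.65% of all genes called) and 2 with DESeq2 (6.74%). With the block they numbered 23 (35.6% of all genes called), with offsets 22 (31.9%) and with both 29 (42.7%). Without a library they numbered 0 to 8, where 1.18% to 13.9% of all genes were called. The 8 came without control_sh replicate 1, the fit with 13.9%. Larger counts thus came in fits that also called a larger share of all genes. The H1 sum ratio was −0.38 to 0.08 without a library and that of H3 −0.22 to 0.19. The H2A sum ratio was −0.67 on FPKM and −0.62 to −0.39 without a library, H2B −0.50 to −0.06, and H4 −0.46 with library totals, −0.27 on FPKM and −0.43 to −0.28 without a library. Values near 0 turned: HIST1H2BK to 0.02 with DESeq2 and with its size factors, 0.00 without a filter, 0.19 with offsets and 0.21 with offsets and block, HIST1H1C to 0.09 with offsets with or without the block, and HIST1H1E to 0.06 and, with the block, 0.19. Without a library the ranges crossed 0 for HIST1H2BK (−0.29 to 0.25), HIST1H1C (−0.43 to 0.15), HIST1H1E (−0.58 to 0.52), HIST1H2AC (−0.34 to 0.18), HIST1H2BN (−0.93 to 0.04), HIST1H3H (−0.73 to 0.23), HIST1H3E (−0.01 to 0.37) and HIST3H2A (−1.06 to 0.05). The cause of these moves was not tested.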

Other observations

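A further 19 rows of the tables carry a clustered histone name without being listed as protein-coding, and 13 of them had no count. Summed, they held 185 and 158 counts in RBM25_sh and 221 and 163 in control_sh, with overlapping groups. Nearly all belonged to the HIST2 cluster: HIST2H2BC had 127 and 111 counts in RBM25_sh and 151 and 126 in control_sh, and HIST2H2BD had 57 and 46 in RBM25_sh and 70 and 34 in control_sh. These non-coding rows alone thus had more counts in every library than the 12 protein-coding HIST2 genes, which held 49 and 57 counts in RBM25_sh and 79 and 81 in control_sh.

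Among the 16 tested members the difference between replicates showed little of the GC trend seen over all genes. Spearman's rho of that difference with GC content was 0.12 in RBM25_sh and 0.17 in control_sh, a description over 16 genes that share libraries.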
